A study of Mus musculus with 9 samples.

Results

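The 10 genes described here encode 6 Toll-like receptors (Tlr1, Tlr2, Tlr3, Tlr4, Tlr6 and Tlr7), the co-receptors Cd14 and Ly96, and the adaptors Myd88 and Ticam1. They were taken by name from the 47729 genes of the deposited table, and all 10 were matched and tested. Toll-like receptors are membrane proteins of innate immunity that bind microbial molecules and products of damaged cells. Most of them pass the signal to MYD88, which leads through IRAK kinases and TRAF6 to NF-kB, while TLR3 and, from endosomes, TLR4 use TICAM1, which leads to interferon regulatory factors. TLR2, TLR4 and CD14 have been proposed as sensors of urate crystals, and synovial fibroblasts are known to carry Toll-like receptors as well as macrophages.

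RNA-seq was run on 9 cultures of synovial fibroblasts, which build and maintain the lining of joints, all grown from paws of wild-type BALB/c mice. Crystals of monosodium urate (MSU), which cause gout, had been injected on day 0 and day 9 into the left paws behind the 3 primed libraries. The right paws behind the 3 non-primed libraries had received them on day 9 alone, and those behind the 3 naive libraries never. RNA was taken on day 18 and every culture had 5 passages, so the values describe cells well after their contact with crystals in the animal. The sources used here do not give the age or sex of the mice. Paw side coincides with priming, primed and non-primed cultures may share mice, and the labels do not tie a culture to an animal. The spread between replicates, on which all p-values rest, may thus be partly technical.

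Values are rlog values, counts made comparable for depth and put on a log2 scale by the authors, with the values of genes with few reads drawn towards the gene's mean. The depth of the libraries is unknown. Fibroblast markers were high in every library, with a mean rlog of 14.01 to 14.52 in primed, 14.33 to 14.43 in non-primed and 13.95 to 14.69 in naive libraries over 12 genes. The cultures also held macrophage transcripts. The mean of 15 macrophage markers, none of them among the 10 genes, was 9.98, 10.53 and 9.37 in primed, 9.63, 10.13 and 9.72 in non-primed and 7.47, 9.66 and 7.13 in naive libraries. All 15 markers were detected in every library, from Lyz2, the most abundant, down to Itgam and Spi1. Naive 2 thus lay with the injected cultures, while naive 1 and naive 3 lay below the lowest of them. The difference in marker mean was 1.87 for primed minus naive and 1.74 for non-primed minus naive, with p = 0.2 each in an exact two-sided permutation test, whose smallest possible p is 0.1. In bulk RNA, fewer macrophages and less RNA per macrophage cannot be told apart. Of the other cell types, Cd3e, S100a9 and Cpa3, which mark T cells, neutrophils and mast cells, stood at 0 in all libraries. The mean of 5 lymphocyte markers was between -1.22 and -1.19 and that of 4 mast cell markers between -0.37 and -0.13. The mean of 5 neutrophil markers was low, at 0.59 to 0.74 in primed, 0.63 to 0.70 in non-primed and 0.51 to 0.56 in naive libraries. Of these 5, Csf3r, the receptor of a granulocyte growth factor, was the marker above the filter, at 3.04 to 3.67 in primed, 3.12 to 3.50 in non-primed and 2.57 to 2.86 in naive libraries. The group means of S100a8 were 2.00 in primed, 2.03 in non-primed and 2.07 in naive libraries. In the same order, those of Ly6g were -0.56, -0.57 and -0.53 and those of Mpo -1.49, -1.44 and -1.49. The mean of 6 endothelial markers was 4.02 to 4.31 in primed, 3.99 to 4.23 in non-primed and 3.51 to 4.17 in naive libraries. The mean of 5 muscle markers was 3.89 to 5.13 in primed, 4.30 to 5.00 in non-primed and 3.61 to 3.85 in naive libraries. The neutrophil mean, mainly through Csf3r, and the muscle mean were thus higher in every injected culture than in any naive one. Their part in the differences between injected and naive cultures was not tested.

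None of the 10 genes passed the threshold in any comparison (limma, adjusted p below 0.05 over 15623 genes). Among all tested genes, 0.102% passed in primed against naive, 0.141% in non-primed against naive and 0% in primed against non-primed cultures. At an unadjusted p below 0.05 the counts were 5 of 10 members in primed against naive, where 16.9% of all genes did so, 3 of 10 in non-primed against naive, where 15.4% did, and 0 of 10 in primed against non-primed, where 1.26% did. The groups did not overlap for 2 of 10 members in primed against naive cultures, against 17.1% of all genes, 8.97% being higher, and for the same 2 in non-primed against naive cultures, against 21.9% of all genes, 11.6% being higher. These were Tlr1 and Tlr6, both higher in injected cultures. The median member difference was 0.22 for primed minus naive, with 6 of 10 higher, and 0.11 for non-primed minus naive, with 7 of 10 higher, while the median over all tested genes was -0.0014 and 0.0088. The naive libraries enter both of these comparisons.

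**Figure D1:**
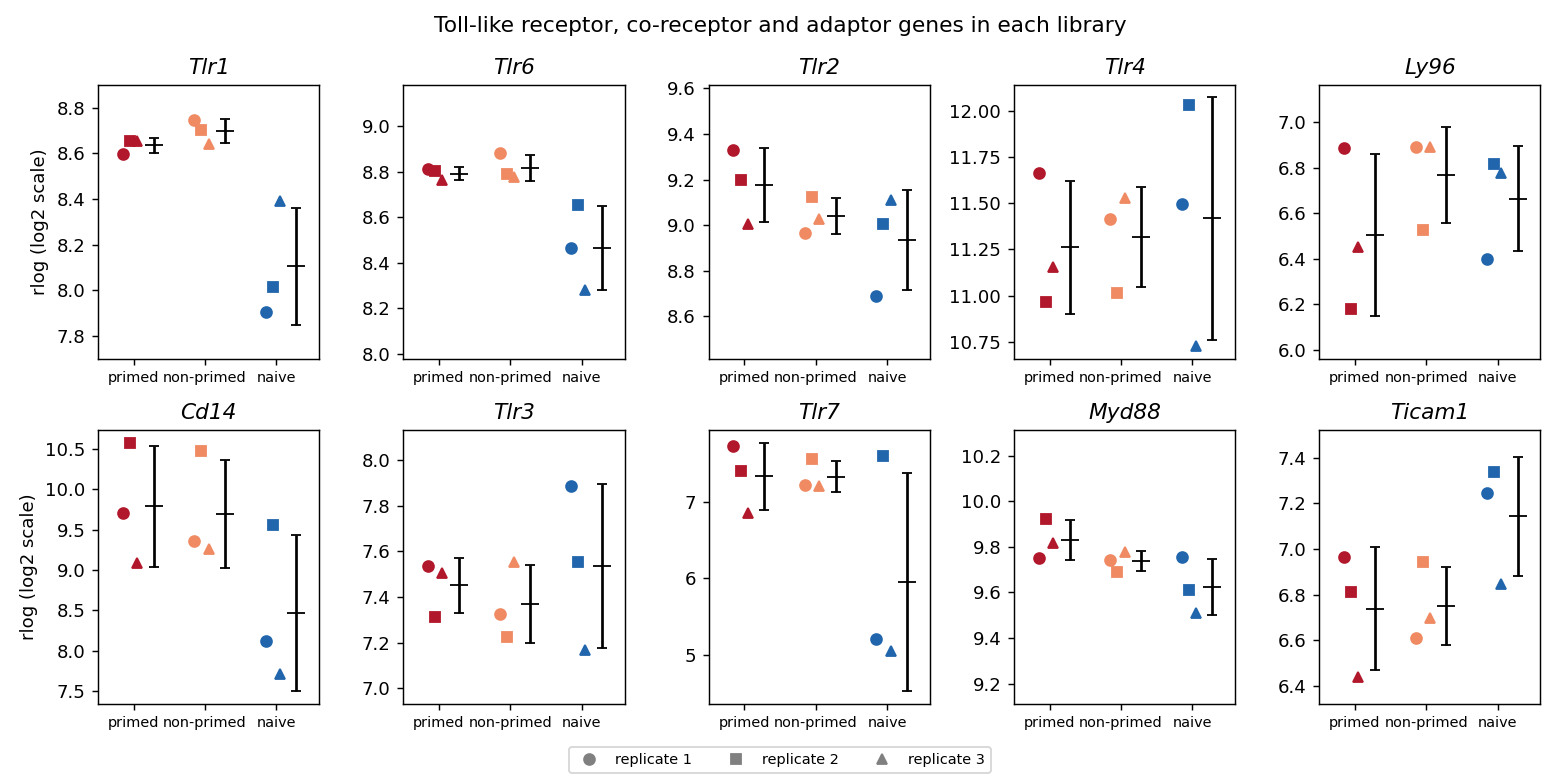
Each panel shows 1 gene, with rlog (log2 scale) on the y axis and the primed, non-primed and naive groups on the x axis. Coloured symbols are libraries (circle, square and triangle for replicates 1, 2 and 3) and black bars are the mean ± SD of 3 libraries. Tlr1 and Tlr6 are the 2 genes whose injected libraries all lie above the naive ones, and in Tlr7 and Cd14 naive 2 lies with the injected libraries.

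TLR2 works as a heterodimer with TLR1 or TLR6, which read lipopeptides of different acylation. The genes of these partners were the 2 members without overlap between injected and naive cultures. They make up 20% of the members, beside 17.1% (primed against naive) and 21.9% (non-primed against naive) of all tested genes. Tlr1 (ENSMUSG00000044827, GRCm38 chromosome 5, 64924679 to 64933563, minus strand) was at 8.60, 8.66 and 8.65 in primed, 8.75, 8.70 and 8.64 in non-primed and 7.91, 8.01 and 8.39 in naive libraries. The injected cultures lay close together, between 8.60 and 8.75, and all above the 3 naive ones. The difference was 0.53 (SE 0.13, adjusted p = 0.141) for primed minus naive and 0.59 (SE 0.13, adjusted p = 0.118) for non-primed minus naive cultures, a ratio of 1.45 and 1.51 on the rlog scale. Naive 2 had a Tlr1 level of 8.01 and a macrophage marker mean of 9.66. With the macrophage mean as a covariate the Tlr1 difference was 0.65 (SE 0.19) for primed and 0.71 (SE 0.18) for non-primed cultures. Without naive 3, the naive library nearest to the injected ones, it was 0.68 (adjusted p = 0.0267) and 0.74 (adjusted p = 0.0189), which passed the threshold in fits that called 1.25% and 1.70% of all genes. With sample weights it was 0.67 (adjusted p = 0.0174) and 0.75 (adjusted p = 0.0131), also past it, in fits that called 4.69% and 3.97% of all genes, while the adjusted p over all alternatives ran up to 0.491 and 0.370.

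Tlr6 (ENSMUSG00000051498, chromosome 5, 64952031 to 64960097, minus strand), the neighbour of Tlr1, was at 8.81, 8.80 and 8.76 in primed, 8.88, 8.79 and 8.78 in non-primed and 8.46, 8.65 and 8.28 in naive libraries. The groups again did not overlap, with naive 2 closest to the injected cultures. The difference was 0.33 (SE 0.11, adjusted p = 0.209) for primed minus naive and 0.35 (SE 0.11, adjusted p = 0.201) for non-primed minus naive cultures. With the macrophage mean as a covariate it was 0.13 (SE 0.13) and 0.17 (SE 0.13). Of the 100 genes whose rlog was most alike to Tlr6 over the 9 libraries, 6 were on the macrophage list, Trem2, Ptprc, Cd68, Tyrobp, Fcer1g and Lyz2, against 0 for Tlr1.

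Tlr2 (ENSMUSG00000027995, chromosome 3, 83836272 to 83841767, minus strand), the shared partner, was at 9.33, 9.20 and 9.01 in primed, 8.97, 9.12 and 9.03 in non-primed and 8.69, 9.01 and 9.11 in naive libraries. Here the groups overlapped and only naive 1 stood below the rest. The difference was 0.24 (SE 0.13, adjusted p = 0.380) for primed minus naive and 0.10 (SE 0.13, adjusted p = 0.761) for non-primed minus naive cultures. The 95% interval for primed minus naive ran from -0.06 to 0.54, and that for non-primed minus naive from -0.20 to 0.40. The Tlr1 intervals, in the same order, were 0.23 to 0.83 and 0.29 to 0.89, and each overlaps that of Tlr2. Whether the differences of Tlr1 and Tlr2 differ from each other was not tested.

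Tlr1 and Tlr6 are close copies, which bears on how far their values are separate measurements. In the coding sequence of Tlr1, 2388 bases long, 19.4% of the 50-base windows occur unchanged in Tlr6, and 19.1% of those of Tlr6, 2421 bases long, occur in Tlr1. No 50-base window was shared between any other pair of a member and a Toll-like receptor gene of the lists. The longest unbroken match is 229 bases, at chr5:64925537-64925765 in Tlr1 and chr5:64953828-64954056 in Tlr6, both on the minus strand of GRCm38. It is shown because reads that fall within it cannot be given to either gene, and it runs from base 1468 of the Tlr1 and base 1507 of the Tlr6 coding sequence.
Tlr1 and Tlr6 shared run: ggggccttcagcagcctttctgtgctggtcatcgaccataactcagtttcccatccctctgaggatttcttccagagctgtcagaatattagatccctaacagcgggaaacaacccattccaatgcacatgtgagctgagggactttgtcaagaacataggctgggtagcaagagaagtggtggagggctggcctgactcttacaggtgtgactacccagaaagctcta
The sources used here do not say how such reads were counted. How far their values depend on each other was not tested. Tlr1 was lowest in naive 1 and Tlr6 in naive 3, so the order of the naive libraries differed between the genes.

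The promoters of this trio are shown because its members share a receptor complex. Injected and naive cultures overlapped for Tlr2 but not for Tlr1 and Tlr6, a lack of overlap that many other genes share. The windows hold 250 bases before and 50 bases after a start site and are RefSeq sequence on GRCm38.p6, all read along the minus strand. They lie at chr3:83841559-83841858 for Tlr2, chr5:64933509-64933808 for Tlr1 and chr5:64959117-64959416 for Tlr6. Capitals mark matches, on either strand, to NF-kB, to GAGGAA, the core bound by the myeloid factor PU.1, to GAAA followed by any 2 bases and GAAA, the core of an interferon response element, or to TGANTCA, an AP-1 element.
Tlr2 promoter: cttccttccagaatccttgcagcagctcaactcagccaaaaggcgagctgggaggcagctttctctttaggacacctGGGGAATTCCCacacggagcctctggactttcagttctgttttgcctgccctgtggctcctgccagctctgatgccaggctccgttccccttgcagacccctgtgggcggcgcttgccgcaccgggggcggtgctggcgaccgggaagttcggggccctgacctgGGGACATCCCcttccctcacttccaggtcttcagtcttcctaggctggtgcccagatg
Tlr1 promoter: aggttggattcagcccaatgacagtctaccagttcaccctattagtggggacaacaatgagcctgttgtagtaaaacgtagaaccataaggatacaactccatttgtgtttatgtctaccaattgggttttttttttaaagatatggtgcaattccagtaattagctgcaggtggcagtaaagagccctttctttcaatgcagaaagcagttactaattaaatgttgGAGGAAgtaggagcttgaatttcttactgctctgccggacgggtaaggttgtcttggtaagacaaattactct
Tlr6 promoter: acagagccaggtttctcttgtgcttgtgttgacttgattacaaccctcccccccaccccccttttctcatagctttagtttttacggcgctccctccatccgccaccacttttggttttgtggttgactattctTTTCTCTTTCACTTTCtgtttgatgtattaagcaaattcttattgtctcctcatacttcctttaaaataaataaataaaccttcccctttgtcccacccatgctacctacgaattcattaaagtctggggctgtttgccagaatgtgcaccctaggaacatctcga
The Tlr2 window held overlapping NF-kB matches from position -173 relative to the start site and another at position -8, a motif found in 8.46% of 32851 windows of the same length. The Tlr1 window held GAGGAA, found in 28.3% of windows, and the Tlr6 window held overlapping copies of the interferon element on the opposite strand, found in 3.44%. TGANTCA, found in 7.81% of windows, matched none of these 3 windows. Another start site of Tlr1 and another of Tlr6 had no match to these motifs. For Tlr6 that other site, at 64960048, lies nearer to the outer end of the annotated gene (64960097) than the site of the printed window, at 64959166. The windows of 6 members were searched, and Cd14 was left out of this search. Of these 6, Tlr3 had an NF-kB match, Myd88 an interferon element and Ticam1 a GAGGAA match. A match is a string of letters only, and no binding was measured.

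TLR4 binds lipopolysaccharide together with LY96, a small secreted protein, and CD14 hands the ligand over, and these 3 genes had different patterns over the libraries. Tlr4 (ENSMUSG00000039005, chromosome 4, 66827584 to 66930284, plus strand) was at 11.66, 10.96 and 11.15 in primed, 11.42, 11.01 and 11.53 in non-primed and 11.49, 12.03 and 10.73 in naive libraries. Naive 2 was the highest and naive 3 the lowest of all 9 libraries, so the naive group spanned the whole range. The difference was -0.16 (SE 0.32, adjusted p = 0.838) for primed minus naive and -0.10 (SE 0.32, adjusted p = 0.914) for non-primed minus naive cultures, and without naive 2 it was 0.15 (SE 0.28) and 0.21 (SE 0.28). The 95% interval for primed minus naive, -0.88 to 0.56, leaves room for a change in either direction. Among the 100 genes most alike to Tlr4, 0 were on the macrophage list and 0 on the fibroblast list.

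Ly96 (ENSMUSG00000025779, chromosome 1, 16688051 to 16709611, plus strand) was at 6.89, 6.18 and 6.45 in primed, 6.89, 6.53 and 6.89 in non-primed and 6.40, 6.82 and 6.77 in naive libraries. The groups overlapped in each comparison, and primed 2 was the lowest library. The difference was -0.16 (SE 0.22, adjusted p = 0.744) for primed minus naive, 0.10 (SE 0.22, adjusted p = 0.862) for non-primed minus naive and -0.26 (SE 0.22, adjusted p = 1.00) for primed minus non-primed cultures. With sample weights the last of these was -0.42 (adjusted p = 0.0252), past the threshold, in a fit that called 13.5% of all genes, and its adjusted p over the alternatives ran up to 1.

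Cd14 (ENSMUSG00000051439, chromosome 18, 36725067 to 36726798, minus strand) encodes a surface protein typical of monocytes and macrophages. It was at 9.71, 10.58 and 9.09 in primed, 9.36, 10.47 and 9.26 in non-primed and 8.13, 9.55 and 7.71 in naive libraries. Naive 1 and naive 3 lay below all injected cultures and naive 2 above 3 of the 6. The macrophage marker mean was likewise lowest in naive 3 and naive 1. The difference was 1.33 (SE 0.55, adjusted p = 0.276) for primed minus naive and 1.23 (SE 0.55, adjusted p = 0.333) for non-primed minus naive cultures. With the macrophage mean as a covariate the differences were -0.25 (SE 0.36) and -0.23 (SE 0.35), and without naive 2 they were 1.87 (SE 0.48) and 1.78 (SE 0.48).

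TLR3 and TLR7 are endosomal receptors of double-stranded and single-stranded RNA. Tlr3 (ENSMUSG00000031639, chromosome 8, 45395665 to 45411080, minus strand) was at 7.53, 7.31 and 7.51 in primed, 7.33, 7.22 and 7.56 in non-primed and 7.88, 7.55 and 7.17 in naive libraries. Naive 1 was the highest and naive 3 the lowest library, so the groups overlapped. The difference was -0.09 (SE 0.19, adjusted p = 0.856) for primed minus naive and -0.17 (SE 0.19, adjusted p = 0.724) for non-primed minus naive cultures. An annotated antisense gene, Gm45542, overlaps an exon of Tlr3, and although the library kit was stranded per the labels' protocols, the sources used here do not say whether the counting used strand.

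Tlr7 (ENSMUSG00000044583, chromosome X, 167304929 to 167330558, minus strand) was at 7.73, 7.41 and 6.86 in primed, 7.22, 7.56 and 7.21 in non-primed and 5.21, 7.60 and 5.05 in naive libraries. This was the widest gap among the members between libraries of 1 group, with naive 2 above 5 of the 6 injected cultures and naive 1 and naive 3 far below all of them. The difference was 1.38 (SE 0.60, adjusted p = 0.292) for primed minus naive and 1.38 (SE 0.60, adjusted p = 0.317) for non-primed minus naive cultures. Without naive 2 it was 2.21 (adjusted p = 0.00839) and 2.20 (adjusted p = 0.0110), which passed the threshold, in fits that called 2.28% and 2.27% of all genes. Over all alternatives the adjusted p ran up to 0.653 and 0.702. With the macrophage mean as a covariate the differences were -0.39 (SE 0.32) and -0.27 (SE 0.31).

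Tlr7 was most alike to Rgs18, Stap1 and Tlr8, with a Pearson r of 0.99 each over the 9 libraries, and 10 of the 100 genes most alike to it were on the macrophage list. For Cd14 the most alike genes were Dpep2, Alox5ap and Pik3r6, also at 0.99 each, and 5 of 100 were on that list, Csf1r, C1qa, C1qb, C1qc and Laptm5. For Tlr2, Tlr3, Tlr4, Ly96, Myd88 and Ticam1 the count was 0 of 100, as for Tlr1. The macrophage list holds 15 and the fibroblast list 12 of the 15623 tested genes. A count of 0 alone thus does not set a gene apart from either list. The gene most alike to Tlr1 was Cmtm3 at 1.00, to Tlr6 Dnase2a at 0.98, to Tlr4 B3galt1 at 0.99, to Ly96 Ube2w at 0.98, to Myd88 Trim7 at 0.97, to Ticam1 Tbc1d22b at 0.97, to Tlr3 Hcn3 at 0.95 and to Tlr2 Pik3r5 at 0.91. These are descriptions, since the highest of very many correlations over 9 libraries is large by selection and all libraries share the same groups.

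**Figure D2:**
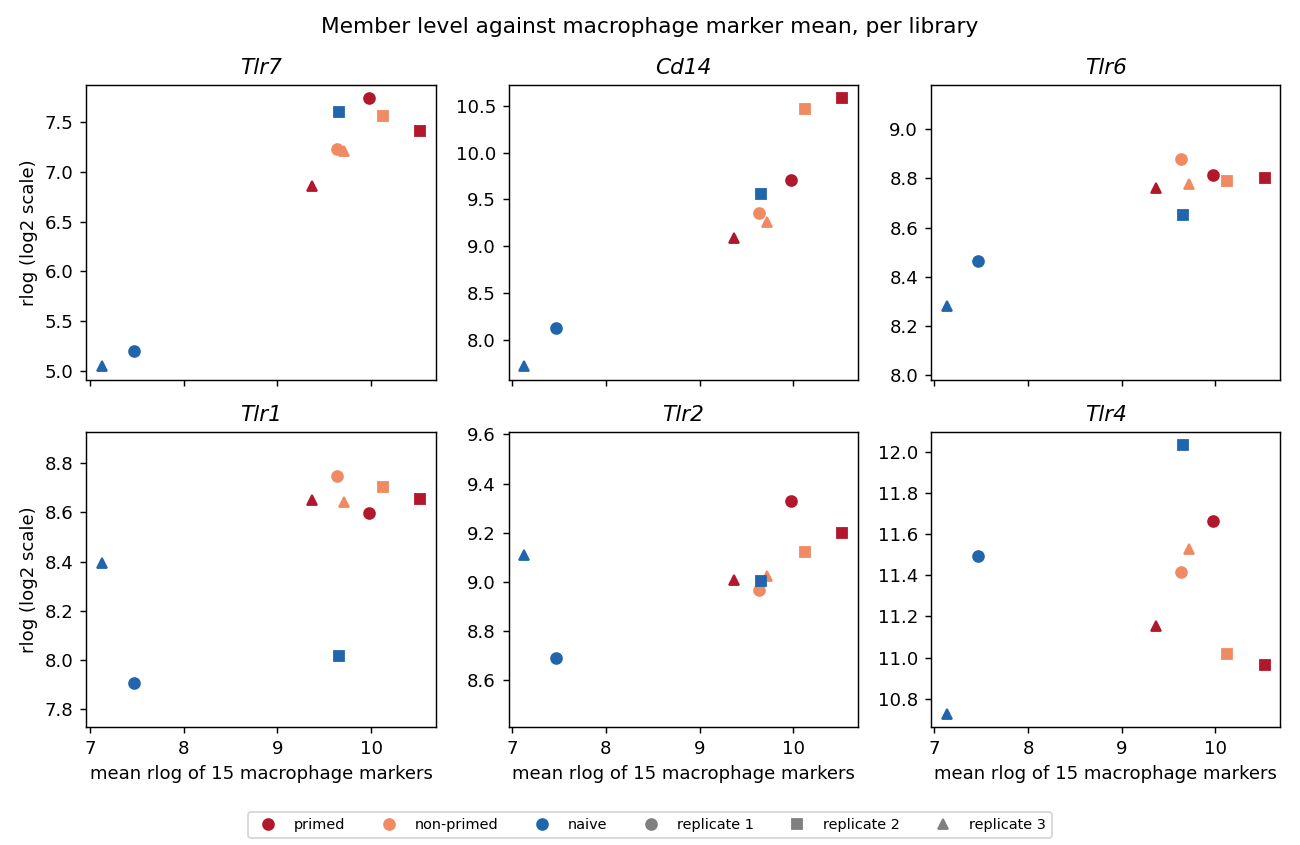
Each panel plots 1 gene's rlog (y axis, log2 scale) against the mean rlog of 15 macrophage markers (x axis) in each library, with colours for groups and symbols for replicates 1 to 3. Tlr7 and Cd14 are low in naive 1 and naive 3, which have marker means of 7.47 and 7.13, and high in the other 7 libraries, whereas Tlr1 is low in naive 2, whose marker mean is 9.66.

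The part of macrophage content in the differences of Tlr1, Tlr6, Tlr7 and Cd14 was not tested. The covariate fits given above cannot separate it from injection, since naive 2 alone among naive libraries had a marker mean in the injected range. Of 8 other genes of the receptor family or its relatives, 5 were tested. Tlr8, the neighbour of Tlr7 on chromosome X, was at 7.94, 7.74 and 7.08 in primed, 7.54, 7.61 and 7.79 in non-primed and 5.67, 7.82 and 5.34 in naive libraries. Tlr13, a receptor of bacterial ribosomal RNA, was at 9.84, 9.98 and 9.14 in primed, 9.51, 9.73 and 9.65 in non-primed and 6.91, 9.22 and 6.66 in naive libraries. In both genes naive 1 and naive 3 lay below every other library. Cd180, a relative of Tlr4 found on B cells and macrophages, and its partner Ly86 differed by 1.41 (SE 0.47) and 1.11 (SE 0.50) in primed and by 1.40 (SE 0.47) and 1.09 (SE 0.50) in non-primed minus naive cultures. Tlr5, the flagellin receptor, differed by 0.44 (SE 0.18) and 0.18 (SE 0.18). None of these 5 passed the threshold (limma, smallest adjusted p = 0.168), with 4 of 5 and 3 of 5 at an unadjusted p below 0.05, where 16.9% and 15.4% of all genes were. Tlr9 was below the filter on low values and Tlr11 and Tlr12 stood at 0 in all libraries.

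Of the adaptors, Myd88 had the smallest range over the 9 libraries among the 10 genes, 0.41, and Ticam1 a range of 0.90. Myd88 (ENSMUSG00000032508, chromosome 9, 119335934 to 119341411, minus strand) was at 9.75, 9.92 and 9.82 in primed, 9.74, 9.69 and 9.78 in non-primed and 9.75, 9.61 and 9.51 in naive libraries. Primed 2 and primed 3 were the highest libraries, while primed 1 lay among the non-primed libraries and beside naive 1. The difference was 0.21 (SE 0.09, adjusted p = 0.287) for primed minus naive and 0.11 (SE 0.09, adjusted p = 0.584) for non-primed minus naive cultures. An exon of Myd88 overlaps the span of Acaa1a, a gene of the opposite strand whose highest rlog was 10.27. Whether their exons overlap was not checked, so the Myd88 value may be uncertain if the counting ignored strand. The span of Slc22a14, a gene of the same strand whose highest rlog was 0.04, also overlaps an exon of Myd88, whatever the strand setting. Ticam1 (ENSMUSG00000047123, chromosome 17, 56269319 to 56276786, minus strand) was at 6.96, 6.81 and 6.44 in primed, 6.61, 6.94 and 6.70 in non-primed and 7.25, 7.34 and 6.85 in naive libraries. Naive 1 and naive 2 were the highest libraries, and naive 3 lay among the injected ones. The difference was -0.41 (SE 0.19, adjusted p = 0.329) for primed minus naive and -0.39 (SE 0.19, adjusted p = 0.377) for non-primed minus naive cultures.

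**Figure D3:**
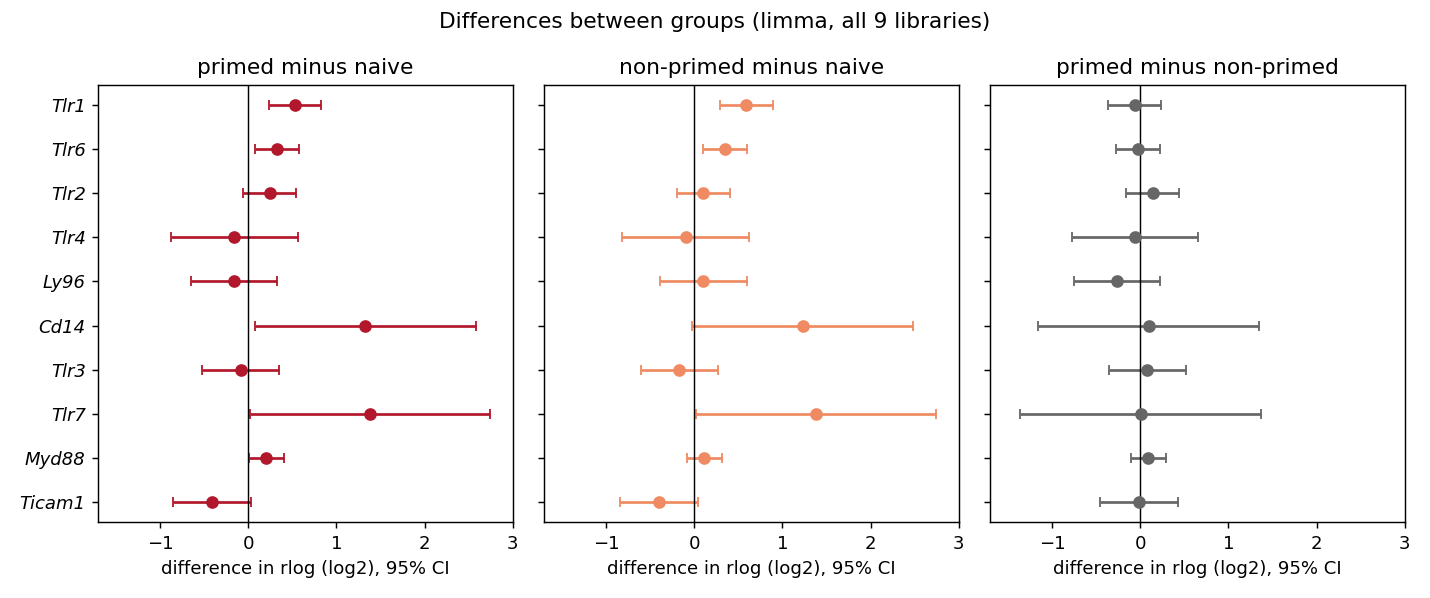
Each panel shows 1 comparison, with the difference in rlog (log2) on the x axis and the 10 genes on the y axis. Points are limma estimates and bars 95% confidence intervals unadjusted for the number of genes. The intervals of Tlr1, Tlr6 and Tlr7 lie above 0 in both comparisons with naive cultures, those of Tlr7 and Cd14 are the widest, and all 10 intervals include 0 in primed minus non-primed.

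Primed and non-primed cultures differ in the earlier injection, and their group means were close for all 10 genes. The differences ran from -0.26 for Ly96 to 0.14 for Tlr2, with a median of -0.0041, 5 of 10 being higher in primed cultures. The groups overlapped for all 10 members, where 11.6% of all genes did not overlap. The adjusted p was 1.00 for each. In the main fit, which does not pair the libraries, the 95% interval was -0.36 to 0.24 for Tlr1, -0.27 to 0.22 for Tlr6, -0.16 to 0.44 for Tlr2 and -0.11 to 0.29 for Myd88. For these genes a change by a factor of 2 lies outside the interval on the rlog scale. For Tlr7, with -1.36 to 1.37, and Cd14, with -1.16 to 1.35, it lies inside. With the replicate number as a block, the interval was -1.21 to 1.22 for Tlr7, which still holds such a change, and -0.26 to 0.45 for Cd14, which does not. The block ties the libraries of all groups by number, naive ones included. It is not established that same-numbered libraries are pairs, and the narrower Cd14 interval holds only if they are. Cd14 was highest in the library numbered 2 in each group, at 10.58 in primed, 10.47 in non-primed and 9.55 in naive cultures, which were also those with the highest macrophage marker mean of their group.

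Levels can be compared between genes after allowing for length, here as rlog minus log2 of the exonic length in kilobases. The levels of Tlr1 and Tlr6 may be shifted by reads from their shared sequence, and that of Myd88 by its overlap with Acaa1a. The size of such shifts was not tested. On this scale Tlr4 averaged 8.86 ± 0.40 (SD, n = 9 libraries), Cd14 8.52 ± 0.95 and Myd88 8.37 ± 0.12. Tlr4 was above Myd88 in 8 of 9 libraries, by 0.49 ± 0.42 (SD), and above Cd14 in 7 of 9. The place of Cd14 depended on the group, its mean being 9.00 beside 8.79 for Tlr4 in primed, 8.90 beside 8.85 in non-primed and 7.67 beside 8.94 in naive libraries, where it also lay below Myd88 at 8.26. Tlr2 followed at 7.46 ± 0.18, below Myd88 in 9 of 9 libraries, and Tlr6 at 6.79 ± 0.20, below Tlr2 in 9 of 9. Tlr6, Tlr1 at 6.74 ± 0.31 and Ly96 at 6.62 ± 0.26 did not keep 1 order over the libraries, Tlr6 being above Tlr1 in 3 of 9 and above Ly96 in 7 of 9. Ticam1 at 5.30 ± 0.29 was below Ly96 in 9 of 9 libraries, and Ticam1, Tlr3 at 5.07 ± 0.22 and Tlr7 at 4.84 ± 1.02 did not keep 1 order either, Ticam1 being above Tlr3 in 7 of 9 and above Tlr7 in 4 of 9. In the TLR4 complex, the level per length of Ly96 was thus below that of Tlr4 in these cultures, at 6.47 against 8.79 in primed, 6.74 against 8.85 in non-primed and 6.63 against 8.94 in naive libraries.

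**Figure D4:**
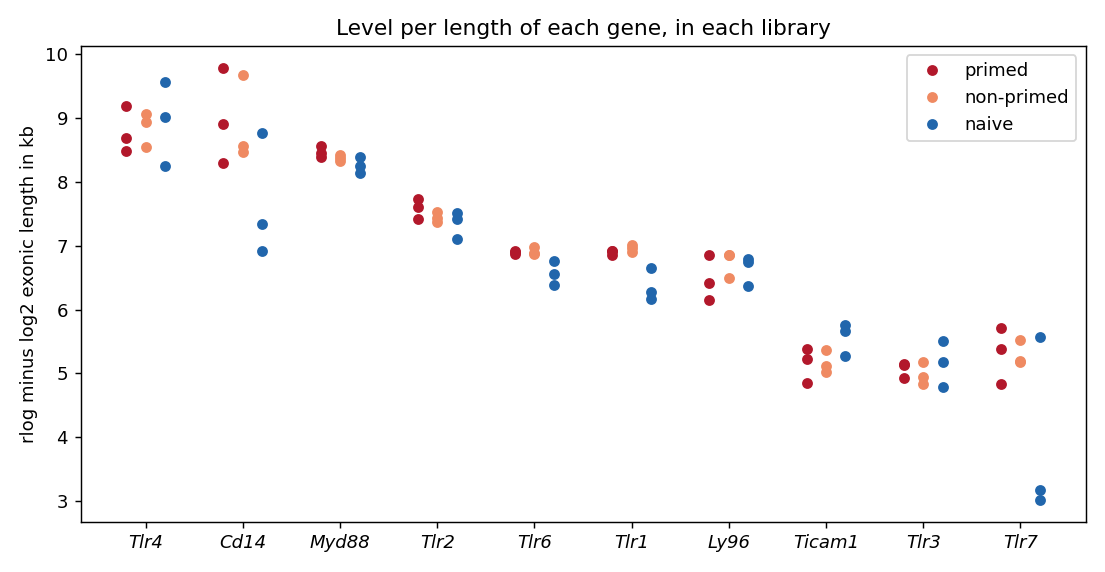
The y axis gives rlog minus log2 of the exonic length in kilobases and the x axis the 10 genes in order of their mean, with 1 point for each library, coloured by group. Tlr4, Cd14 and Myd88 lie at the top, and the 2 lowest points belong to Tlr7 in naive 1 and naive 3.

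Further down the pathway, 44 of 50 listed genes for cofactors, kinases, transcription factors, brakes and response genes were tested, and none passed the threshold in any comparison (limma). At an unadjusted p below 0.05 there were 10 of 44 in primed against naive, 10 of 44 in non-primed against naive and 0 of 44 in primed against non-primed cultures, where 16.9%, 15.4% and 1.26% of all genes were. The groups did not overlap for 22.7%, 31.8% and 11.4% of the 44, beside 17.1%, 21.9% and 11.6% of all genes. Among the kinases, Irak1 encodes an IRAK kinase that acts below MYD88. It was at 9.77, 9.60 and 9.62 in primed, 9.61, 9.58 and 9.60 in non-primed and 10.20, 10.05 and 9.94 in naive libraries. All injected cultures lay below all naive ones, with a difference of -0.40 (SE 0.09, adjusted p = 0.121) for primed and -0.47 (SE 0.09, adjusted p = 0.0878) for non-primed minus naive cultures. Ripk1, a kinase shared with death receptors, differed by 0.27 (SE 0.08, adjusted p = 0.188) and 0.27 (SE 0.08, adjusted p = 0.198).

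Irf5, a transcription factor that acts below MYD88 and is strongly expressed in macrophages, was at 8.18, 8.74 and 7.69 in primed, 7.72, 8.22 and 7.84 in non-primed and 6.42, 7.41 and 6.72 in naive libraries. The groups did not overlap, with a difference of 1.36 (SE 0.32, adjusted p = 0.128) for primed and 1.08 (SE 0.32, adjusted p = 0.186) for non-primed minus naive cultures. Rela, the NF-kB subunit, differed by -0.16 (SE 0.12) and -0.23 (SE 0.12). Of the brakes, Nfkbia, the inhibitor that holds NF-kB in the cytoplasm and is itself an NF-kB target, was at 9.79, 9.81 and 9.63 in primed, 9.46, 9.64 and 9.58 in non-primed and 10.13, 10.30 and 9.82 in naive libraries. The injected cultures again lay below the naive ones, by -0.34 (SE 0.13, adjusted p = 0.237) for primed and -0.52 (SE 0.13, adjusted p = 0.134) for non-primed minus naive cultures. Rnf216, a ubiquitin ligase, differed by -0.13 (SE 0.07) and -0.20 (SE 0.07).

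Among cofactors, Unc93b1, which carries TLR3 and TLR7 to endosomes, differed by 0.32 (SE 0.10, adjusted p = 0.196) in primed minus naive cultures. In non-primed minus naive cultures the Unc93b1 difference was 0.23 (limma, SE 0.10, adjusted p = 0.334). Its partner in trafficking Lrrc59 differed by 0.33 (SE 0.12, adjusted p = 0.235) in primed and 0.37 (SE 0.12, adjusted p = 0.212) in non-primed minus naive cultures. Ticam2, the bridge between TLR4 and TICAM1, differed by 0.52 (SE 0.23, adjusted p = 0.333) in non-primed minus naive cultures. For primed minus naive cultures the Ticam2 difference was 0.63 (limma, SE 0.23, adjusted p = 0.239). Of the response genes, the chemokine Ccl2 was at 12.09, 12.86 and 12.37 in primed, 12.09, 12.58 and 12.37 in non-primed and 11.91, 11.42 and 11.94 in naive libraries. All injected cultures lay above the naive ones, by 0.68 (SE 0.22, adjusted p = 0.201) and 0.59 (SE 0.22, adjusted p = 0.256). Tnf differed by 0.91 (SE 0.44, adjusted p = 0.334) in primed minus naive and Lcn2, an iron-binding acute phase gene, by -2.30 (SE 0.94, adjusted p = 0.293) in non-primed minus naive cultures. In limma, the Tnf difference for non-primed minus naive cultures was 0.99 (SE 0.44, adjusted p = 0.336). That of Lcn2 for primed minus naive cultures was -1.62 (SE 0.94, adjusted p = 0.404). Between primed and non-primed cultures the smallest p values of these groups belonged to Cnpy3, Hsp90b1, Chuk, Tab3, Irf7, Irf5, Nfkbia, Tnfaip3, Cxcl10 and Il6, all with an adjusted p of 1.00. Chuk, a kinase of the NF-kB pathway, had the smallest, at -0.15 (SE 0.07, unadjusted p = 0.0557), and the interferon regulator Irf7 differed by 0.62 (SE 0.50). Sigirr, Il1b, Il12b, Ifnb1, Cxcl2 and Nos2 were below the filter.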

How the data were processed

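RNA-seq libraries of cultured mouse synovial fibroblasts were grouped by their titles, 3 primed, 3 non-primed and 3 naive. The authors deposited 1 table of rlog values on a log2 scale. Per the submitters' processing notes the tools were cutadapt 2.5, STAR 2.5.4a, Subread 1.6.1 with featureCounts, and DESeq2, on GRCm38. The sources used here do not give which annotation release was counted, whether strand was used, or the rlog settings. The rlog shrinks differences of weakly expressed genes, and depth is unknown, so precision rests on 3 libraries a group.

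Symbols matched 47224 of 47729 identifiers, and coordinates and exonic lengths are GENCODE M21 on GRCm38. Genes that varied with a mean rlog of at least 3 were tested (15623), with limma 3.58.1 in R 4.3.3, 1 mean per group over all 9 libraries, moderated variances with a trend, two-sided, Benjamini-Hochberg adjustment over all tested genes, threshold 0.05. The script was tested on simulated data. Alternatives were other filters, priors, weights, centring, a replicate block, a macrophage covariate, groups fitted alone and each library left out.

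The members and lists were chosen with earlier results of these data known. Named are all members, the tested genes most alike to each (3 at most, by Pearson r), and of each pathway group the 2 tested genes with the smallest p per comparison. Replicate numbers need not mark a mouse, by the design text. Deviations from group means correlated at 0.418, 0.608 and 0.100 between same-numbered primed and non-primed libraries, each above 0.1 before rounding, which by a rule on such correlations takes them as pairs. Primed 1 and non-primed 3, whose numbers differ, correlated at 0.275, more than the pair numbered 3. The correlations thus do not establish that same-numbered libraries are true pairs.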

Additional observations from a re-analysis of the deposited data

How the results depend on the processing

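Of 30 member differences (10 genes in 3 comparisons), 14 kept their direction under all 18 alternatives, and 512 of 540 values did. Other filters, other priors, groups fitted alone, the replicate block and leaving out a library of the group not compared cannot change a difference of group means. Their agreement was fixed in advance, so these counts overstate how stable the directions are. The covariate turned Tlr7 and Cd14 in both comparisons with naive cultures and made the median of the members -0.13 for primed minus naive, against 0.22 without it, and -0.08 for non-primed minus naive, against 0.11. The number of members past the threshold was 1 in primed against naive with sample weights (Tlr1) or the replicate block (Cd14, 1.33, adjusted p = 0.0395, where the range over alternatives is 0.0395 to 0.774), 1 in non-primed against naive with sample weights (Tlr1) and 1 in primed against non-primed with sample weights (Ly96), and 0 to 1 with single libraries left out (Tlr7 without naive 2, Tlr1 without naive 3, each in both comparisons with naive cultures). Deviations of same-numbered libraries of injected and naive groups correlated at -0.160 to 0.152. Those of primed 3 with naive 3 (0.101) and non-primed 1 with naive 1 (0.152) were above 0.1. The block pairs injected and naive libraries by number only. It changed no other member's call.

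Over all genes, the count in primed against naive cultures (16) was 0 with no filter, no variance trend or the groups alone, 1 with the covariate, 51 with the replicate block and 733 with sample weights. In non-primed against naive (22) it was 0 with no filter, 13 with the stricter filter (mean rlog 6) or a robust prior, 5 with no trend, 7 with the groups alone, 1 with the covariate, 17 with the replicate block and 621 with weights. In primed against non-primed (limma, 0, with 197 at an unadjusted p below 0.05) it was 2109 with weights. Without 1 library these counts ran from 0 to 356, 0 to 355 and 0 to 0, highest without naive 2. The cause of these shifts was not tested. The macrophage mean differed by 1.39 to 2.66 for primed and 1.26 to 2.53 for non-primed minus naive cultures when 1 library was left out. Depth is unknown, and rlog shrinkage limits what can be said of Ticam2 and other weak genes.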

Other observations

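Of the 44 pathway genes tested, 7 had an SD above 1 among the 3 naive cultures, a limit chosen after the values were seen, and no test was made. Naive 2 was the highest naive library in 4 of them. Lcn2 was at 6.59, 4.68 and 5.34 in primed, 4.88, 4.32 and 5.37 in non-primed and 7.66, 8.96 and 4.85 in naive libraries. Saa3, an acute phase gene, was at 11.20, 10.45 and 9.16 in primed, 8.99, 10.56 and 9.46 in non-primed and 8.77, 11.66 and 8.11 in naive libraries. Both were highest of all 9 libraries in naive 2. Lbp, which encodes the serum protein that brings lipopolysaccharide to CD14, was at 11.68, 11.06 and 11.33 in primed, 10.93, 10.75 and 11.23 in non-primed and 11.52, 12.85 and 10.04 in naive libraries. The naive libraries spanned the whole range, as they did for Tlr4. Cd36, a scavenger receptor that assists TLR2 and TLR6, was at 10.73, 10.78 and 9.81 in primed, 9.75, 10.28 and 10.49 in non-primed and 8.67, 10.47 and 7.42 in naive libraries, with naive 1 and naive 3 below all others.

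The other 3 genes had another order. Icam1, an adhesion molecule, was at 11.98, 11.11 and 11.27 in primed, 11.33, 11.05 and 11.44 in non-primed and 12.04, 11.62 and 9.79 in naive libraries, with naive 1 highest. Irf7 was at 9.16, 9.99 and 8.58 in primed, 8.63, 8.67 and 8.57 in non-primed and 10.15, 8.32 and 10.13 in naive libraries, and naive 2 was the lowest of all. Ptgs2, the inducible cyclooxygenase, was at 7.23, 8.79 and 9.16 in primed, 8.56, 9.13 and 8.87 in non-primed and 8.19, 6.90 and 8.94 in naive libraries, again lowest in naive 2.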
